A study of Mus musculus with 6 samples.

Results

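Collagen genes were examined in RNA sequencing libraries of mouse embryo dorsal root ganglia, in which sensory neurons and their glia lie next to the spinal cord. They were the protein-coding genes with a GENCODE M21 symbol made of Col, a number, the letter a and a number. This gave 44 of the 37086 genes with a transcript in the files, and of 185 collagen transcripts the one with the most tags over all libraries stood for its gene. By type, 8 genes were fibrillar, 8 belonged to basement membranes, 7 to cartilage and 21 to other types. The ganglia came from 18 wild-type C57BL/6J embryos at embryonic day 14.5 and were pooled, and all 6 libraries were made from 1 stock of total RNA of that pool. In the 3 high-volume libraries the RNA entered reverse transcription in 9 µl with the SMARTer Ultra Low Input kit sold as HV, and in the 3 low-volume libraries in 1 µl with the SMARTer Ultra Low RNA kit, so volume and kit cannot be told apart. The RNA input was 3, 10 or 30 ng, and each combination of volume and input had 1 library. SDs and p-values are therefore about technical spread, and spread between embryos was not measured.

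Collagens are secreted or membrane proteins whose chains wind into a triple helix of Gly-X-Y repeats, in which glycine returns at a fixed interval. Fibrillar collagens form the banded fibrils of connective tissue, type IV collagen forms the meshwork of basement membranes, and types II, IX, X and XI are known from cartilage. In peripheral ganglia, fibroblasts and vessel walls are known to make the fibrils, and glia and vessels lie on basement membranes. In bulk RNA, fewer cells of a type and less RNA per cell cannot be told apart.

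The repeat can be read in the exons themselves. Fibrillar collagen genes are known for exons of 54 bases, which code for whole Gly-X-Y units. Among the 44 chosen transcripts, 469 of 2015 exons (23.3%) were 54 bases long. In the 11 transcripts of fibril-forming chains, with Col2a1, Col11a1 and Col11a2 counted among them, the number was 305 of 647 (47.1%), against 164 of 1368 (12.0%) in the other 33 collagens and 0.564% of the exons of the 21487 protein-coding genes. The most 3′ exon of 54 bases of each of the 3 most abundant chains is printed below to show this unit, followed by a Col4a1 and a Col4a2 exon in which the repeat is broken. Sequences are those of the GENCODE M21 transcripts on GRCm38, written 5′ to 3′ on the gene's strand, and capitals mark the GG of each in-frame glycine codon. Exon 47 of Col1a2 lies at chr6:4537173-4537226 (+), exon 46 of Col3a1 at chr1:45344797-45344850 (+), exon 46 of Col1a1 at chr11:94949720-94949773 (+), exon 25 of Col4a1 at chr8:11226950-11227141 (-) and exon 15 of Col4a2 at chr8:11409422-11409472 (+), all within coding sequence.
Col1a2: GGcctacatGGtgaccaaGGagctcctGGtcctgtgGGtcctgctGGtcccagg
Col3a1: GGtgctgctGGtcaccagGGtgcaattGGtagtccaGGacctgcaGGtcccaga
Col1a1: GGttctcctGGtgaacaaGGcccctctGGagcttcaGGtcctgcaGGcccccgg
Col4a1: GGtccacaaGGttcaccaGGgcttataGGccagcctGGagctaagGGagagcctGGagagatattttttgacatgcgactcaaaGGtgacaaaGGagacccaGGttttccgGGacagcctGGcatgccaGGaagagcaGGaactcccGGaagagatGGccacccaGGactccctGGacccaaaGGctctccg
Col4a2: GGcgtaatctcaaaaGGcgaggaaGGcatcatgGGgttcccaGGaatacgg
Each of the 3 fibrillar exons held 6 glycine codons among 18 codons, evenly spaced, and the Col4a1 exon held 19 among 64 with a stretch that lacked them. Over the coding sequence, the longest unbroken run of evenly spaced glycine codons had 339 glycines in Col1a2, 344 in Col3a1 and 338 in Col1a1. It had 40 in Col4a1 and 66 in Col4a2, and over the 8 basement membrane genes it spanned 30 to 66.

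Chains of type I and type III collagen had the highest levels among collagen transcripts. Levels are the authors' RPKM, a tag count scaled to transcript length and library size. Tags lay towards the 3′ end by an unequal degree: in the 25 genes with a mean of 1 or more, the density over the last 1000 bases was 1.04 times (Col8a1) to 4.93 times (Col6a3) the RPKM. Levels of different genes are therefore also given on the last 1000 bases, a choice made after seeing the data, for some of the orders and shares that depend on it. Tags of an exon were spread evenly over its bases, so a last exon longer than 1000 bases gives the density of that whole exon. The last exon has 4560 bases in Col8a1, 89.3% of its transcript, and 746 in Col6a3. Genes are thus read over unlike windows on this measure. Of the 44 genes, 6 had a mean of 10 or more over the 6 libraries, 19 lay from 1 to 10, 10 from 0.1 to 1 and 9 under 0.1. The share at 1 or more, 56.8%, was near the 52.9% of all protein-coding genes, and the share at 10 or more was 13.6% against 20.6%. Summed collagen RPKM was 278, 260 and 273 in the high-volume libraries at 3, 10 and 30 ng, and 312, 260 and 243 in the low-volume libraries. Collagen transcripts held 0.169, 0.157 and 0.163% of the tags in the high-volume libraries, against 0.179, 0.155 and 0.144% in the low-volume libraries, and the ranges overlapped (exact permutation test, two-sided p = 0.8, smallest possible 0.1).

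**Figure D1:**
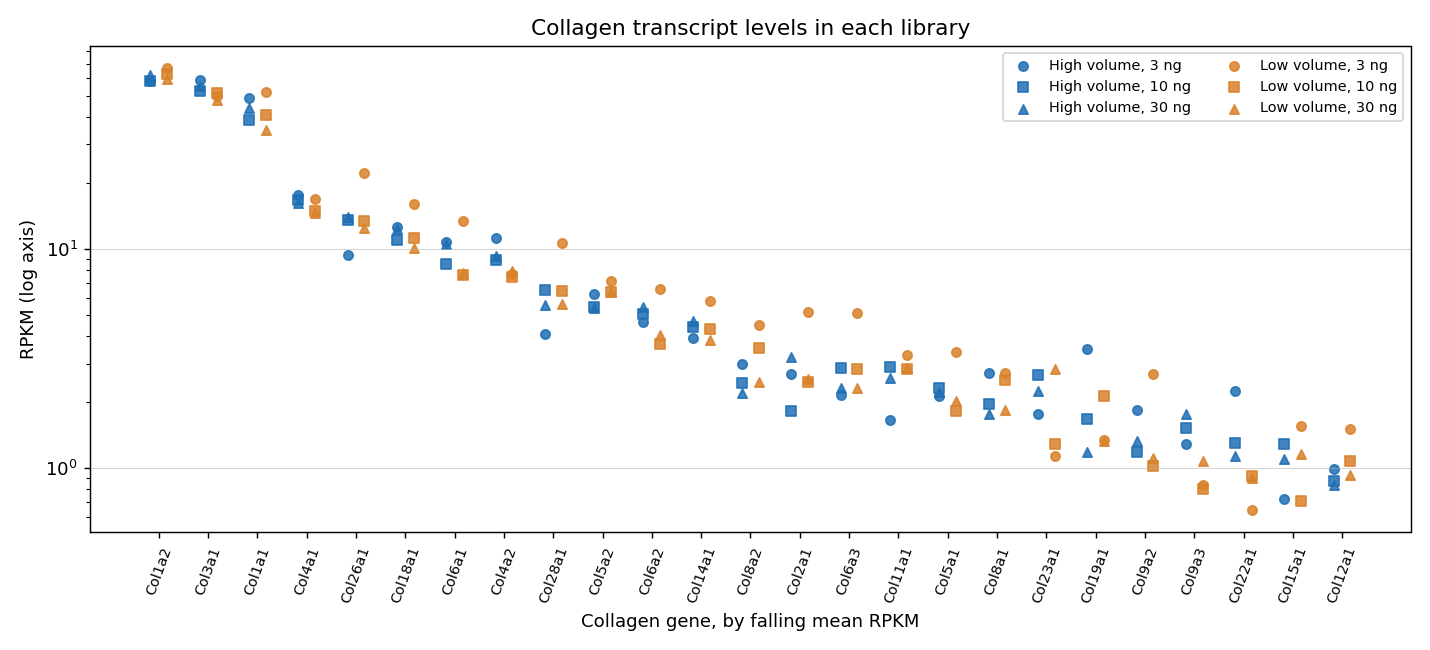
RPKM on a log axis of the 25 collagen genes with a mean of 1 or more, in order of their mean, with 1 point per library, high-volume libraries left of low-volume ones and a symbol for each RNA input. Col1a2, Col3a1 and Col1a1 stand above all others in every library, and the low-volume 3 ng library is the highest for 18 of the 25 genes.

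Fibrillar chains took the largest share. Col1a2, the second chain of type I collagen, had an RPKM of 58.7, 58.6 and 62.4 in the high-volume libraries at 3, 10 and 30 ng, and 67.0, 63.2 and 59.8 in the low-volume libraries. Col3a1, the type III chain of soft tissues and vessel walls, had 58.8, 52.3 and 55.3 in the high-volume libraries, against 50.03, 51.5 and 47.7 in the low-volume libraries. Every high-volume library of Col3a1 was above every low-volume one, and those of Col1a2 overlapped. Col1a1, the first chain of type I, had 49.1, 38.9 and 44.1 in the high-volume libraries and 51.9, 40.9 and 34.8 in the low-volume libraries. The means of these chains over all 6 libraries were 61.6 ± 3.24 for Col1a2, 52.6 ± 3.92 for Col3a1 and 43.3 ± 6.39 for Col1a1 (SD, n = 6 libraries), and together they made up 58.2 ± 2.19% of the summed collagen RPKM, or 49.6 ± 4.59% on the last 1000 bases. Type V chains, which join type I fibrils, were lower, with 6.15 ± 0.666 for Col5a2, 2.33 ± 0.554 for Col5a1 and 0.0810 ± 0.0738 for Col5a3. Col27a1 averaged 0.305 and Col24a1 0.0127 RPKM.

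Of the 8 basement membrane genes, 4 had a mean RPKM of 1 or more. Col4a1, a chain of the type IV network found in all basement membranes, had 17.6, 16.8 and 16.1 RPKM in the high-volume libraries at 3, 10 and 30 ng, and 16.9, 14.9 and 14.6 in the low-volume libraries. Its partner Col4a2 had 11.2, 8.94 and 9.34 in the high-volume libraries, against 7.65, 7.42 and 7.92 in the low-volume libraries, and its groups did not overlap. Col18a1, whose C-terminal fragment is endostatin, had 12.6, 11.005 and 12.4 in the high-volume libraries and 15.97, 11.2 and 10.1 in the low-volume libraries. Col15a1, its close relative, averaged 1.09 ± 0.329. The chains restricted to certain basement membranes were low, with means of 0.991 for Col4a5, 0.397 for Col4a6, 0.170 for Col4a3 and 0.0415 for Col4a4. Col4a5 ranged widely, from 6 tags in the low-volume 3 ng library to 300 in the low-volume 10 ng library.

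The transcripts of Col18a1 start at separate promoters, and their first exons held few tags. The first exon of the chosen transcript (chr10:77166439-77166548, 110 bases) held 18 tags over the 6 libraries, and its second exon 42. A first exon of 1459 bases of another transcript (chr10:77112218-77113676) held 7 tags. The chosen first exon had 1, 1 and 6 tags in the high-volume libraries at 3, 10 and 30 ng, and 7, 1 and 2 in the low-volume libraries. The exon of 1459 bases had 0, 3 and 2, and 0, 0 and 2. The use of either start cannot be read from so few tags.

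Cartilage collagens were present at low levels over whole transcripts. Col2a1, the main chain of cartilage fibrils, had 2.70, 1.83 and 3.23 RPKM in the high-volume libraries at 3, 10 and 30 ng, and 5.14, 2.48 and 2.55 in the low-volume libraries, so that the low-volume 3 ng library was the highest and the groups overlapped. On the last 1000 bases Col2a1 averaged 10.7 ± 3.93, which is 3.57 times its RPKM over the whole transcript. Col11a1, which joins the type II fibril, averaged 2.69 ± 0.556, Col9a2 1.53 ± 0.634, Col9a3 1.22 ± 0.386 and Col9a1 0.839 ± 0.636. Col11a2 averaged 0.112, and Col10a1, a chain of hypertrophic cartilage, 0.0492. Other cartilage markers were mostly near 0: of 8, only Cnmd had a mean of 1 or more, at 47.3, and the matrix genes Acan and Matn3 were at 0.0417 and 0.0223. Of 6 bone markers 1 had a mean of 1 or more, Alpl at 2.46. Ibsp was at 0.992, Sp7 at 0.238, Runx2 at 0.078 and Dmp1 at 0.0223, and Bglap was listed at 0 in every library.

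Among the other types, Col26a1 and Col6a1 were the highest. Col26a1 had 9.36, 13.5 and 13.97 RPKM in the high-volume libraries at 3, 10 and 30 ng, and 22.1, 13.4 and 12.5 in the low-volume libraries. The highest and the lowest of these were both 3 ng libraries. Col6a1, a chain of the beaded filaments of type VI collagen, had 10.7, 8.53 and 10.495 in the high-volume libraries and 13.5, 7.65 and 7.74 in the low-volume libraries. Its partners Col6a2 and Col6a3 averaged 4.91 ± 1.04 and 2.94 ± 1.11, while Col6a4, Col6a5 and Col6a6, a cluster on chromosome 9, were all under 0.1. Col28a1, known from Schwann cells of peripheral nerve, had 4.11, 6.52 and 5.54 in the high-volume libraries and 10.7, 6.45 and 5.59 in the low-volume libraries. Col14a1, a collagen that binds to fibrils, averaged 4.49 ± 0.713, and the type VIII chains of vessels and cornea 3.02 ± 0.861 for Col8a2 and 2.25 ± 0.440 for Col8a1. Col7a1 of the anchoring fibrils of skin averaged 0.0512, and Col17a1 of hemidesmosomes had 3 tags in all, in the low-volume 30 ng library.

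The 9 genes under 0.1 RPKM rested on few tags. They held 3 to 81 tags over all libraries, and for several most tags came from 1 library, such as 18 of 21 for Col6a5 in the high-volume 3 ng library and 30 of 40 for Col6a6 in the low-volume 10 ng library. An order among such genes cannot be read at this depth. Among the 25 genes at 1 or more, ranges over the libraries overlapped for 23 of the 24 pairs of neighbours in the order of means. The exception was the step from Col1a1 to Col4a1. Read within each library, 3 of the 24 pairs kept their order in all 6: this one, Col18a1 above Col6a1 and Col14a1 above Col8a2.

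By class, fibrillar genes held 61.5 ± 2.102% of the summed collagen RPKM, other types 20.4 ± 2.16%, basement membrane genes 14.7 ± 0.810% and cartilage genes 3.45 ± 0.557% (SD, n = 6 libraries). The fibrillar share was 63.0, 60.8 and 62.2% in the high-volume libraries at 3, 10 and 30 ng, and 57.5, 63.0 and 62.2% in the low-volume libraries. The groups overlapped (difference 1.08 percentage points, exact permutation test, two-sided p = 0.8). The basement membrane share was 15.8, 15.2 and 14.8% in the high-volume libraries, against 13.5, 14.2 and 14.6% in the low-volume libraries. Here the groups did not overlap, with a difference of 1.18 percentage points and p = 0.1 by the same exact permutation test, the smallest that 3 against 3 libraries allow. Read on the last 1000 bases, the same share was 21.05, 22.2 and 24.3% in the high-volume libraries. It was 22.4, 21.3 and 22.6% in the low-volume libraries, and the groups overlapped on that measure. The shares depended on how the level was taken. On the last 1000 bases of each transcript fibrillar genes held 51.97 ± 4.56%, basement membrane genes 22.3 ± 1.17%, other types 21.3 ± 3.40% and cartilage genes 4.47 ± 0.839%. Basement membrane genes were thus above the other types in that mean and below them over whole transcripts, and on the last 1000 bases the ranges of these classes over the libraries overlapped. In Col1a1, Col1a2 and Col3a1 the last 1000 bases lie in the last exon, which had a lower density than the exon before it. The part of this in the shares was not tested.

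**Figure D2:**
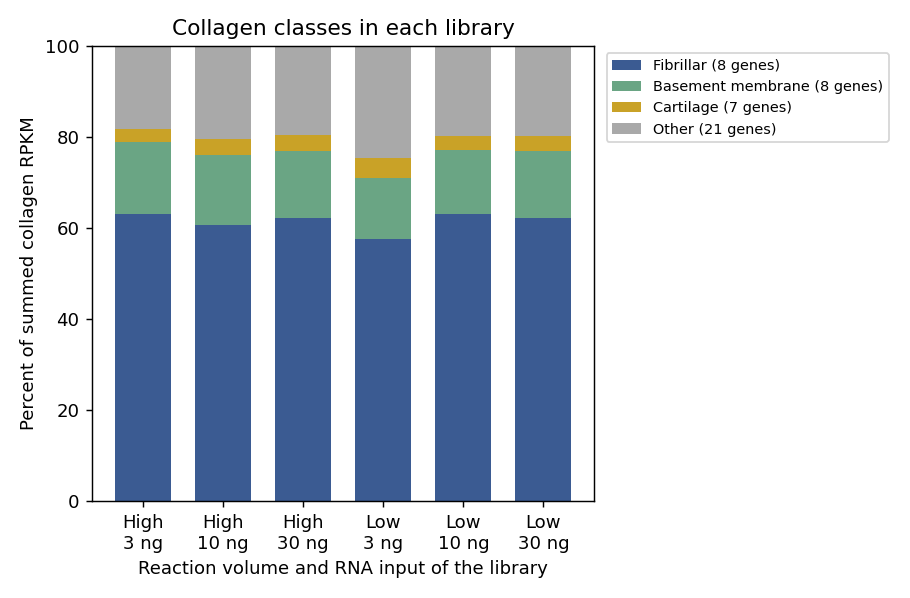
Share of the summed RPKM of all 44 collagen genes held by each class, as stacked bars that add up to 100% in each library, with the high-volume libraries on the left. Fibrillar genes hold 57.5 to 63.0% in every library, with the lowest value in the low-volume 3 ng library.

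Tags of collagen transcripts were concentrated towards the 3′ end, more than in other genes by a measure that exon structure affects. Tag density was compared between the 3′ and the 5′ side of the transcript midpoint in the 25 genes with a mean RPKM of 1 or more, with tags of an exon spread evenly over its bases. The median log2 ratio of the 3′ to the 5′ side was 2.42, 2.28 and 1.81 in the high-volume libraries at 3, 10 and 30 ng, and 2.27, 2.30 and 2.31 in the low-volume libraries. It averaged 2.23 ± 0.213 (SD, n = 6 libraries), and the volumes did not differ beyond their spread (exact permutation test, two-sided p = 0.8). The same median was 0.41 ± 0.0586 over 5859 protein-coding genes in the same range of length, 2781 to 11511 bases, and 0.29 over all 11356 at that level. The collagen median was the higher one in all 6 libraries. The even spread pulls the ratio towards 0 where a long exon crosses the midpoint. The comparison genes were matched on length but not on exons. The 44 collagen transcripts have 2015 exons, and those of the 21487 protein-coding genes 202082. The part of exon structure in the difference was not tested. Of the 25 genes, 23 had a ratio above 0 in all 6 libraries and 16 a mean above 2.

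The slope differed between members. It was 2.02 ± 0.227 for Col1a2, 2.103 ± 0.232 for Col3a1 and 2.46 ± 0.678 for Col1a1 on the log2 scale (SD, n = 6). For Col4a1 it was 3.36 ± 0.629, for Col4a2 5.81 ± 2.44, for Col6a3 5.73 ± 2.11 and for Col2a1 5.37 ± 2.56. Col8a1, Col8a2, Col23a1 and Col26a1 have a last exon longer than all their other exons together, and for them the ratio is in part set by the even spread over that exon. Col19a1, at -0.38 ± 1.72, was the only one with a mean below 0. In Col1a1 the first exon had a density of 6.23 ± 2.17 RPKM and the last 82.5 ± 7.82. In Col3a1 the first had 6.65 ± 3.41 and the last 74.2 ± 8.94. The density did not rise up to the end: the exon before the last had 114 ± 14.9 in Col1a1 and 192 ± 23.8 in Col3a1. Col1a2 had 178 ± 17.2 in that exon and 98.975 ± 16.5 in its last. The exons of 54 bases printed above lie near the 3′ end of the helix and had 117 ± 41.5 RPKM in Col1a2, 108 ± 21.3 in Col3a1 and 50.1 ± 7.28 in Col1a1.

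**Figure D3:**
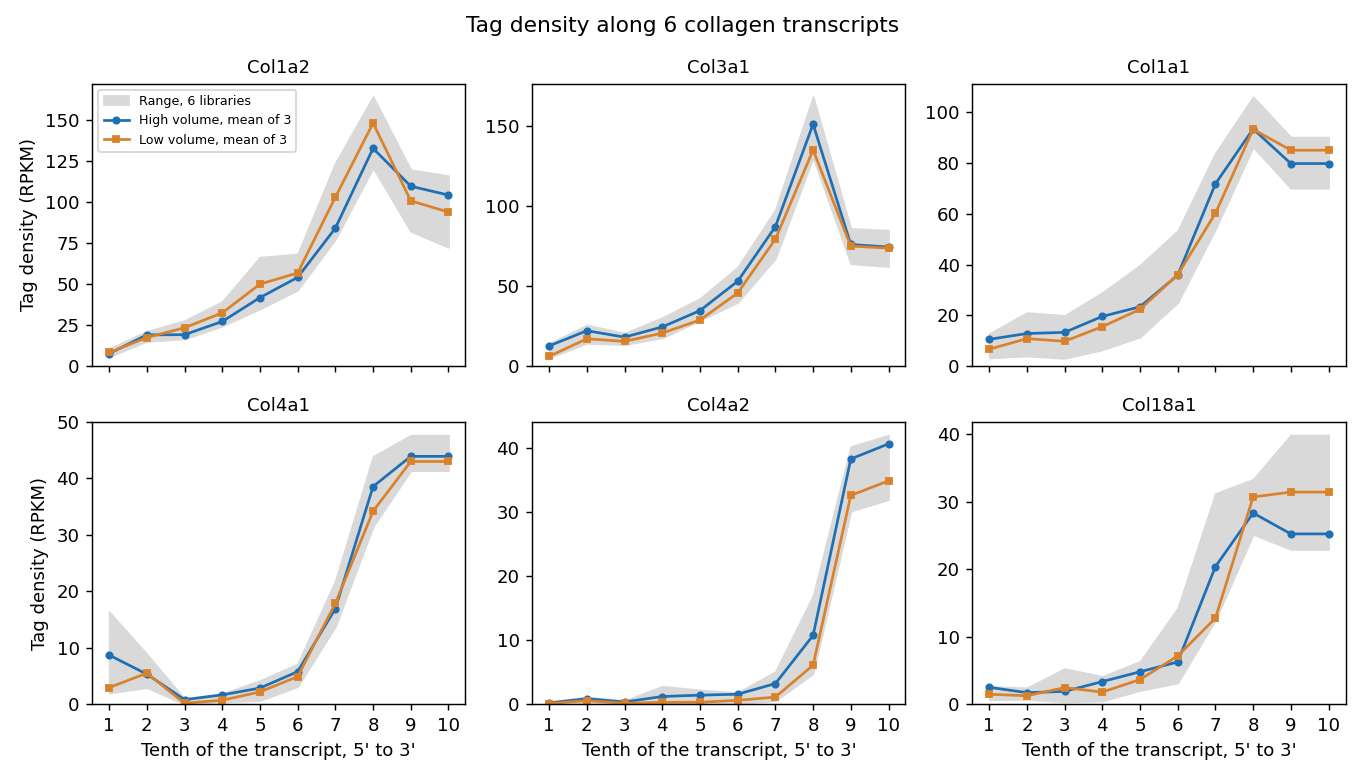
Tag density in RPKM over 10 equal parts of the transcript from 5′ to 3′, with the mean of the 3 high-volume and of the 3 low-volume libraries and the range of all 6 in grey. Flat stretches at the 3′ end are single last exons over which tags were spread evenly, and in each of the 6 genes drawn the last part is above the first.

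Col4a1 and Col4a2 lie head to head on chromosome 8 and their first exons overlap by 22 bases (Col4a1 chr8:11198423-11312826, minus strand; Col4a2 chr8:11312805-11449287, plus strand), but their exon profiles differed at the 5′ end. In Col4a1, exons 2 to 14 had 16.5, 7.92 and 7.65 RPKM in the high-volume libraries at 3, 10 and 30 ng, and 11.1, 4.57 and 5.26 in the low-volume libraries. Exons 16 to 33 of Col4a1 had 1.46, 1.44 and 1.18 in the high-volume libraries and 0.636, 0.537 and 0.381 in the low-volume libraries. The 5′ block was thus above the middle block in all 6 libraries, and exons 44 to 52 were the highest at 36.6 ± 1.30 (SD, n = 6). Col4a2 had 0.522 ± 0.319 RPKM over its exons 2 to 14, 0.469 ± 0.420 over exons 16 to 30 and 21.7 ± 2.97 over exons 40 to 48. The interrupted exons printed above fall in the sparse stretches, with 0.809 RPKM for exon 25 of Col4a1 and 1.19 for exon 15 of Col4a2. The blocks were chosen after seeing the exon values and carry no test.

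**Figure D4:**
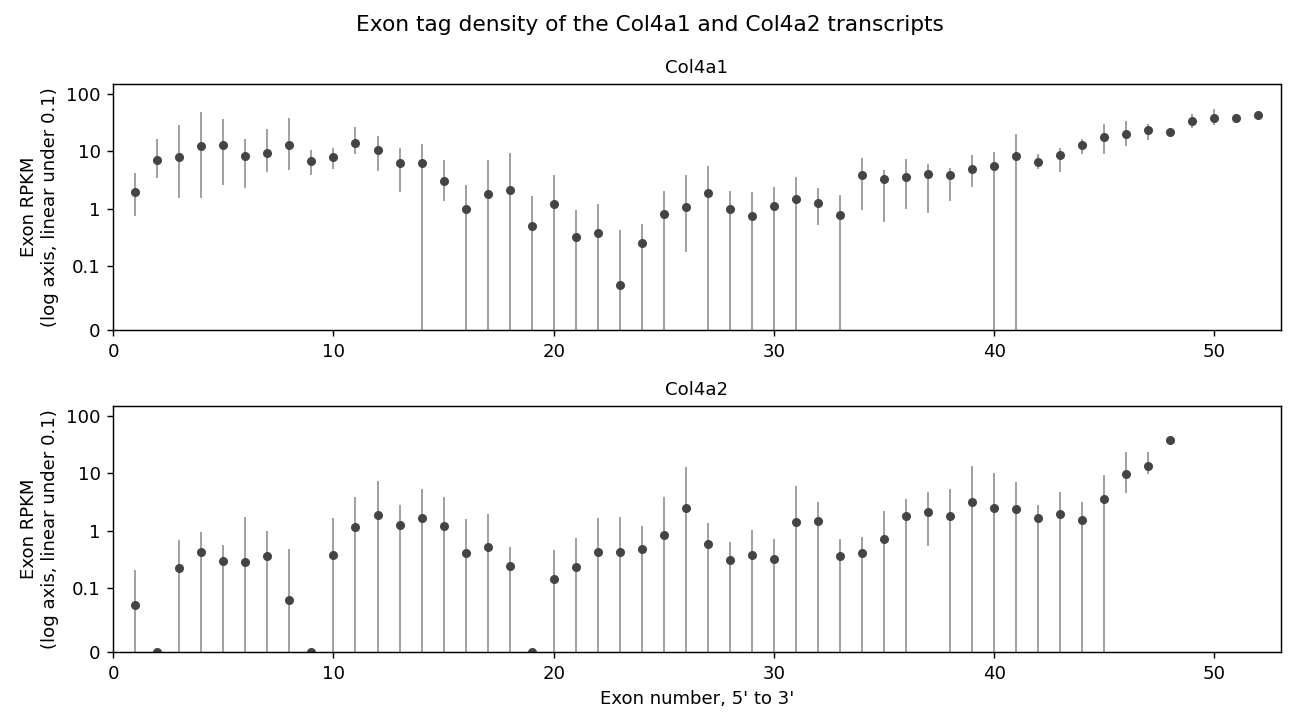
Exon density in RPKM by exon number, on a log axis that is linear under 0.1, with the mean of 6 libraries as points and their range as bars. Exons 2 to 14 of Col4a1 form a raised block that is followed by a low stretch from exon 16 to 33, while Col4a2 has no such block and is highest in its last exon.

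Introns carried few tags. The density over introns of the chosen transcript was 0.0317 to 2.52% of the transcript's RPKM in the 25 genes at 1 or more, with a median of 0.707%. For Col1a1 it was 0.0624%. Because introns are long, they still held 67.6% of the tags of Col19a1, 34.8% of those of Col11a1 and 32.2% of those of Col28a1. Introns of 1 transcript can hold exons of another, which were not set aside.

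Since chains of 1 type are assembled into the same trimer or filament, pairs of chains were compared within each library on log2(RPKM + 1). Of the 11 pairs, Col15a1 with Col18a1 is a pair of relatives from separate types and not of chains of 1 type. The differences were tested over the 6 libraries by exact sign flips (a permutation test, two-sided) and adjusted over the 11 pairs by the Benjamini-Hochberg method, with a smallest p of 0.0312. It called 8 pairs, all at that smallest p and an adjusted p of 0.0430. Col1a1 was below Col1a2 in all 6 libraries, at 0.702 of its mean RPKM, and Col5a1 below Col5a2 at 0.378. Col4a1 was above Col4a2 in all 6, at 1.85 times its RPKM, Col6a1 above Col6a2 at 1.99 times and Col6a2 above Col6a3 at 1.67 times. Col8a1 was at 0.745 of Col8a2, Col11a1 at 23.9 times Col11a2, and Col15a1 at 0.0892 of Col18a1, with the same sign in all 6 libraries. The pairs Col4a5 and Col4a6 (p = 0.0625 by the exact test), Col9a1 and Col9a2 (p = 0.0625) and Col9a2 and Col9a3 (p = 0.469) were not called. Col5a3 with Col5a2 and Col4a4 with Col4a3 were left untested because a chain of each was under 0.1 RPKM.

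Because the 3′ slope differed between chains, the pairs were also read on the last 1000 bases of each transcript, an alternative added after seeing the data. A longer last exon, such as the 2645 bases of Col5a1 and 1910 of Col5a2, again enters as a whole. There Col4a1 was at 1.15 times Col4a2, with 43.5 ± 2.16 against 37.7 ± 3.69 RPKM (SD, n = 6), and Col6a1 at 1.20 times Col6a2. Col5a1 was at 0.709 of Col5a2 there and Col11a1 at 9.67 times Col11a2, and both pairs were still called. Col6a2 and Col6a3 were at 14.4 ± 3.63 and 14.5 ± 4.72 RPKM there, a ratio of 0.995, and this pair was no longer called. Col1a1 was at 0.833 of Col1a2 and also no longer called (exact sign-flip test, adjusted p = 0.0764). Col9a1 against Col9a2 and Col9a2 against Col9a3 passed on that measure (adjusted p = 0.0430 by the exact test). In the order of levels Col4a2 moved to rank 5, against rank 8 over the whole transcript, and Col6a3 to rank 9, against rank 15, while Col1a2 stayed first. The mean of Col1a1 moved above that of Col3a1, at 82.5 ± 7.82 against 74.2 ± 8.94 RPKM. That of Col18a1 moved above Col26a1, at 28.3 ± 5.93 against 23.6 ± 6.67.

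The reaction volume was then compared by edgeR's quasi-likelihood test on tag counts, over all genes, with the RNA input in the model and Benjamini-Hochberg adjustment. No collagen gene passed an adjusted p of 0.05 among the 37 that passed the filter on low counts, and over all 16120 genes tested 1 did (0.0062%). At an unadjusted p of 0.05, 4 of the 37 collagen genes and 6.67% of all genes passed, and DESeq2 also called 0 of the 37, with 1.11% of all genes called. The fitted log2 difference, high minus low volume, was above 0 for 25 of the 37 collagen genes, with a median of 0.09 beside 0.02 over all genes. With total-count scaling in place of TMM these medians were -0.02 and -0.10 and 18 of the 37 lay above 0, so the sign of the collagen median depends on the scaling.

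The lowest p-values belonged to Col4a2 and Col3a1. Col4a2 had a log2 difference of 0.50 ± 0.148 (SE; adjusted p = 0.680 by edgeR), with a CPM, the tag count scaled to library size, of 69.5 ± 8.60 in the high-volume libraries and 53.1 ± 1.69 in the low-volume libraries (SD, n = 3 each). Col3a1 had 0.30 ± 0.0935 (adjusted p = 0.691 by edgeR). Col22a1, a collagen of tissue junctions, had 1.02 ± 0.362 and Col4a1 0.27 ± 0.106. On the side of the low volume, Col8a2 had -0.27 ± 0.234 and Col28a1 -0.29 ± 0.283, and Col28a1 was at 0.13 without the 3 ng libraries. None of these passed the adjustment. RPKM did not overlap between the volumes for 6 of the 37 genes, with Col4a2, Col3a1, Col22a1, Col9a3 and Col16a1 higher and Col5a2 lower in the high volume. Among all genes tested 19.0% had no overlap, with 650 of the 16120 (4.03%) higher and 2414 lower in the high volume. The collagen count was near that background in all, but 5 of its 6 genes were on the higher side, where fewer of all genes lay.

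**Figure D5:**
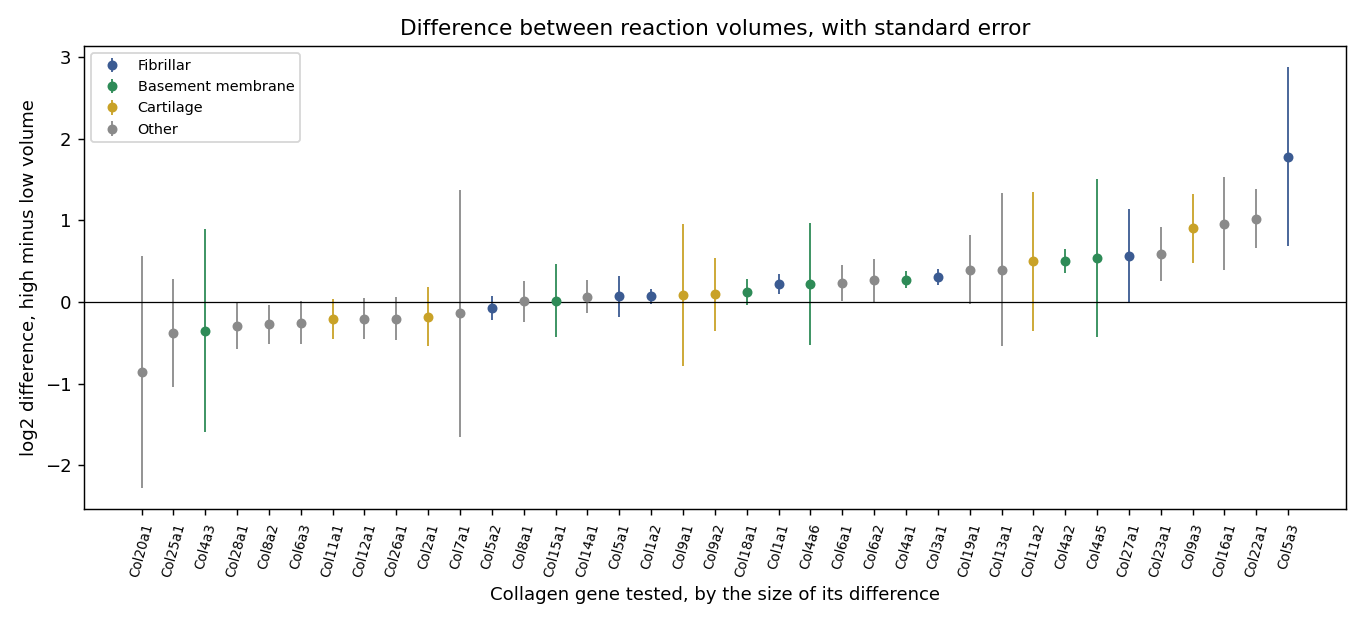
Fitted log2 difference in tag counts, high minus low volume, for the 37 collagen genes tested, with its standard error, in order of size and coloured by class. Of the 37 points 25 lie above 0, with Col3a1 at 0.30, Col4a1 at 0.27 and Col4a2 at 0.50 among them.

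The 3 ng libraries weighed on this comparison. With the 10 and 30 ng libraries alone, which leaves 1 residual degree of freedom, 29 of 38 collagen genes lay above 0 and their median was 0.28, beside 0.01 over all 16564 genes. Again none passed the adjustment (lowest adjusted p = 0.112 by edgeR), while 1.65% of all genes did, 200 of them higher and 74 lower in the high volume. An unadjusted p under 0.05 was seen for 9 of the 38 collagen genes and 15.9% of all genes, and all 9 were higher in the high volume, among them Col6a2 at 0.57 ± 0.162, Col4a2 at 0.38 ± 0.112, Col6a1 at 0.43 ± 0.134 and Col1a1 at 0.26 ± 0.0995 (SE). The directions of all genes at that unadjusted p are not given here. The low-volume 3 ng library gave the highest RPKM for 18 of the 25 genes at 1 or more (72.0%), beside 35.8% of protein-coding genes at that level. All 8 markers of fibroblasts and meninges were at 1 RPKM or more. Their summed RPKM was 245 to 264 in the high-volume libraries and 303 to 314 in the low-volume libraries, while summed collagen RPKM averaged 271 ± 9.54 in the high-volume and 272 ± 36.2 in the low-volume libraries (SD, n = 3 each). In the fit with TMM the fibroblast marker Dcn, a proteoglycan of collagen fibrils, had a log2 difference of -0.05 ± 0.129 (SE; adjusted p = 0.925 by edgeR). Lum and Ogn, also among the 8 markers, had -0.17 ± 0.135 and -0.10 ± 0.186, and fitted values of the others are not given here. Summed RPKM of endothelial markers was 78.2 to 91.5 in the high-volume libraries and 80.0 to 90.9 in the low-volume libraries. The part of either in the collagen values was not tested.

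Along the input, no collagen gene passed either. Per doubling of RNA, edgeR called 0 of 37 collagen genes and 0.0% of all genes, with 1 collagen gene and 7.77% of all genes at an unadjusted p of 0.05, while DESeq2 called 0 of the 37 and 0.223% of all genes. The fitted slope was above 0 for 11 of the 37, with a median of -0.08 beside 0.02 over all genes, and without the low-volume 3 ng library the median was -0.01. Col1a1 had the lowest p, at -0.11 ± 0.0440 per doubling (adjusted p = 0.625 by edgeR), and Col8a2 had -0.19 ± 0.0865. In the other direction Col23a1 had 0.26 ± 0.122, with 1.77, 2.66 and 2.24 RPKM in the high-volume libraries at 3, 10 and 30 ng and 1.14, 1.28 and 2.83 in the low-volume libraries. Col5a3 had 0.77 ± 0.412, on 81 tags in all.

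Whether the volume difference itself changed with the input was tested by an interaction term with 2 residual degrees of freedom. It called 0 of 37 collagen genes and 0.0% of all genes by edgeR, with 3 collagen genes and 8.36% of all genes at an unadjusted p of 0.05, and DESeq2 called 0 of the 37 and 0.105% of all genes. Col26a1 had the lowest p, at 0.41 ± 0.128 per doubling (adjusted p = 0.583 by edgeR), and Col28a1 followed at 0.40 ± 0.155. Both had their lowest value at 3 ng in the high volume and their highest at 3 ng in the low volume. Col22a1 ran the other way at -0.47 ± 0.200, with 2.25, 1.31 and 1.14 RPKM in the high-volume libraries at 3, 10 and 30 ng and 0.644, 0.918 and 0.906 in the low-volume libraries. Col4a5 had -1.35 ± 0.657, which rests on its 6 tags in the low-volume 3 ng library: without that library the value was 0.10.

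The genes that make, process and bind collagen were expressed alongside. Among 22 genes of collagen biosynthesis, 20 reached 1 RPKM, led by the prolyl isomerase Ppib at 538 ± 42.5, the collagen chaperone Serpinh1 at 266 ± 62.3 and P4hb, a subunit of prolyl 4-hydroxylase, at 122 ± 19.1. Of 17 genes of fibril processing and cross-linking 11 were at 1 or more, led by Sparc at 421 ± 39.8, Postn at 42.4 ± 4.87 and the procollagen enhancer Pcolce at 25.8 ± 3.63. Small leucine-rich proteoglycans, which coat fibrils, were led by Dcn at 92.6 ± 10.7, Bgn at 31.2 ± 5.18 and Lum at 29.7 ± 4.76, with 7 of 10 at 1 or more.

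Of 12 partners in the basement membrane 10 were at 1 or more. They were led by the laminin chains Lamb1 at 16.1 ± 1.66 and Lama4 at 14.4 ± 1.74 and the linker Nid1 at 11.02 ± 0.515. The lowest were Lama1 at 0.541 and Lama5 at 0.122. Over whole transcripts type IV chains spanned 0.0415 (Col4a4) to 16.1 (Col4a1) RPKM. Of 12 collagen receptors 7 were at 1 or more, led by Adgrg1 at 39.3 ± 6.61, the integrin subunit Itgb1 at 37.4 ± 4.68 and the discoidin receptor Ddr1 at 6.29 ± 1.08. The integrin alpha subunits on the list were lower, with Itga2 at 1.04, Itga1 at 0.691, Itga11 at 0.447 and Itga10 at 0.0597. Of 13 genes of collagen degradation 9 were at 1 or more, led by the protease Ctsk at 26.7 ± 5.82 and the inhibitors Timp3 at 15.8 ± 2.39 and Timp2 at 10.9 ± 1.02. By edgeR's quasi-likelihood test none of the 75 listed genes tested passed an adjusted p of 0.05 between volumes, per doubling of input or for the interaction, and 5 of the 75 had an unadjusted p under 0.05 between volumes, beside 6.67% of all genes.

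Of the collagen genes that lie next to each other, some pairs had overlapping ranges of RPKM and others lay far apart. The members lie on 15 chromosomes. Among them 10 pairs of neighbours lay within 400 kb, on chromosomes 1, 2, 8, 9, 10 and X, and 3 of these pairs were head to head. Col4a4 and Col4a3 start 71 bases apart on chromosome 1 and had 0.0415 and 0.170 RPKM, and Col4a6 and Col4a5 start 1.31 kb apart on the X chromosome and had 0.397 and 0.991. Col3a1 and Col5a2 lie tail to tail, 24.6 kb apart on chromosome 1, at 52.6 and 6.15 RPKM. Col6a1 and Col18a1, 326 kb apart on 1 strand of chromosome 10, were at 9.77 and 12.2 RPKM with overlapping ranges, though Col18a1 was the higher in all 6 libraries. On the last 1000 bases they were at 17.2 and 28.3. Col6a6, Col6a5 and Col6a4 were at 0.0322, 0.0263 and 0.0142 RPKM, where no order can be read. Whether counting used strand is unknown, so tags in the overlapping first exons of Col4a1 and Col4a2, 0.333% and 1.008% of the bases of these transcripts with all overlaps included, may belong to either gene.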

How the data were processed

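The 6 libraries were 3 high-volume and 3 low-volume libraries of 1 pool, grouped by their titles. The submitters' processing notes name the build GRCm38.p1 and the tools Bowtie2 2.1.0, TopHat2 2.0.8 and CASAVA 1.8. Not given in the sources used here: counting program, strand use and annotation. The deposited files give the authors' whole-number tag counts for each transcript, exon and intron, and the authors' RPKM, which per the file headers stands beside each tag count. Depth in the chosen transcripts was 14160401 to 31524211 tags. Without molecular identifiers, PCR copies were counted as tags.

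Transcripts were matched to GENCODE M21 genes (89664 of 93615). The test of tag counts was that of edgeR 4.0.16 under R 4.3.3 (quasi-likelihood, TMM, filterByExpr, volume and centred log2 input, 3 residual degrees of freedom), with DESeq2 1.42.0 as an alternative. The fit was tested on simulated data. RPKM was described with Python 3.11.15 as mean and SD over the libraries, and pairs were tested on log2(RPKM + 1), which understates folds of low genes. Density over a transcript part was computed from exon tag counts, with 0.5 tags added on each side of the midpoint. The 44 members, the classes, pairs and lists were chosen with earlier results of these data known.

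Named with values were members with a mean RPKM of 10 or more, the 2 highest of each class, chains in a pair, the 2 members with the lowest unadjusted p in each direction of each comparison, and the 3 highest genes of each pathway list. Other members named for their exons, introns, position or low tags, and other listed genes named for low levels, were chosen after their values were seen. Alternatives were other scaling, tools, filters and transcripts, each library left out, the RNA input as a replicate block, and the 10 and 30 ng libraries alone.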

Additional observations from a re-analysis of the deposited data

How the results depend on the processing

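No collagen gene was called for volume, input or their interaction under any alternative run for them. The fibrillar share, 61.5% as reported, was 63.6% with Col2a1, Col11a1 and Col11a2 in that class, 58.4% with the transcript of largest mean RPKM and 51.97% on the last 1000 bases. The median log2 3′ to 5′ ratio, 2.23, was 2.47 for members at 10 RPKM or more and 3.29 between the first and last of 4 equal parts of the transcript. Of 8 chain pairs called, 0 passed with CPM in place of RPKM, although 6 kept their sign in all 6 libraries: with 6 pairs at the smallest p, their adjusted p was 0.0573. Likewise 0 passed when any 1 library was left out, where the smallest p is 0.0625. The difference between Col6a2 and Col6a3 reversed to -0.39 with CPM and -0.90 with the transcript of largest mean RPKM, and that between Col9a2 and Col9a3 to -0.24 with that transcript. CPM is not scaled to length, and the chosen transcripts have 3949 bases for Col6a2 and 9001 for Col6a3. The transcript of largest mean RPKM has 646 bases for Col6a3 and 749 for Col9a3, so these are not like measures. With 1 library left out at a time, the fibrillar share was 61.1 to 62.2% and the 3′ to 5′ median 2.20 to 2.32. The volume difference of the fibrillar share then spanned -0.63 to 2.12 percentage points, reversed without the low-volume 3 ng library, and that of the 3′ ratio -0.25 to 0.057, reversed without the high-volume 30 ng library. The volume difference of Col28a1 spanned -0.51 to 0.067, reversed to 0.067 without the high-volume and to 0.011 without the low-volume 3 ng library, and was 0.13 with neither. The interaction of Col4a5 spanned -2.99 to 0.099, reversed without the low-volume 3 ng library. Over all genes, edgeR called 1 higher and 0 lower in the high volume, against 77 and 102 by DESeq2, 10 and 1 with no filter on low counts, and 200 and 74 with the 10 and 30 ng libraries alone. For the input DESeq2 called 16 and 20, and for the interaction 10 and 7, with 118 and 136 by edgeR with no filter, against 0 as reported. The causes were not tested.

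Same-numbered libraries of the 2 volumes share the RNA input, not an animal. With the input as a replicate block, edgeR called 0 collagen genes and 0 of all 16120 genes, against 0 and 1 without the block. Genes under 0.1 RPKM rest on 3 to 81 tags, and with 3 libraries per volume no exact test between volumes can go below 0.1.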
